A study of Mus musculus with 12 samples.

Results

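The acute phase genes described here are Saa1, Saa2, Saa4, Orm1, Orm2, Hp, Hpx, Lcn2, Apcs and Itih4, 10 genes of secreted proteins from the families that the liver makes during the response to inflammation. They were taken from a list of symbols that uses no measured value, drawn up with earlier results of these data known, and all 10 were present among the 23420 gene symbols of each deposited table. The tables hold liver RNA of 12 mice on a C57BL/6 background, 3 each of wild type females, Siah2 KO females, wild type males and Siah2 KO males. The livers were taken at ZT10, which is 10 hours after lights on in a cycle of 12 hours of light and 12 hours of dark, from mice about 20 weeks old. Siah2 encodes an E3 ubiquitin ligase, and the KO mice were Siah2-/- in all tissues, with no other allele or treatment in any group. Wild type and KO mice came from related homozygous lines founded from a cross of heterozygotes, so that they were not necessarily littermates. The study describes individual livers, while the sample labels speak of RNA pooled from 3 mice. Each sample is called a mouse here, and p-values measure only the spread between these 12 samples.

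Transcripts were counted with the Lexogen QuantSeq 3′ mRNA kit, which reads a stretch near the poly(A) tail of each transcript. Levels are given as CPM, the counts of a gene scaled to a common library total, with TMM factors correcting for unequal library composition. Library totals lay between 1293688 and 4056144 counts, and the 10 genes together took from 0.479% to 0.819% of them. Hepatocyte markers summed to between 32850 and 47840 CPM in every mouse. Neutrophil markers summed to at most 10.5 CPM, with Elane at 0 in all mice, and Kupffer cell markers (of the resident macrophages of the liver) to between 100.2 and 860.4 CPM. Siah2 counts near the 3′ end averaged 13.5 CPM in females of the wild type and 10.7 CPM in those lacking Siah2, and 21.7 and 13.9 CPM in males. Neither difference passed the edgeR test (adjusted p = 0.641 and 0.9999), and whether these tags lie within the deleted part is not stated, so that they do not check the genotype.

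The acute phase response is a change in the plasma proteins made by hepatocytes after infection or injury. Interleukin 6 acts through its receptor and JAK kinases on STAT3, while interleukin 1 and tumour necrosis factor act on NF-κB. C/EBP factors bind the same promoters, and the resulting proteins carry lipid, bind drugs and hormones, scavenge haem and haemoglobin, withhold iron from bacteria or mark debris for removal. In the unstimulated liver the inducible serum amyloid A genes and Lcn2 are low, while haptoglobin, hemopexin and Orm1 are made constitutively.

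The promoters of 4 of the genes are shown because Saa1, Saa2 and Orm2 had their highest level in the same mouse, and because Lcn2 was near the limit of detection in males. They are taken from RefSeq (GRCm38.p6), 300 bases each, from 250 bases before to 50 bases from the transcription start on. Capitals mark matches to TTGCNNAA (C/EBP), TTCNNNGAA (STAT) or the core promoter motif TATAAA on either strand. The windows are chr7:46742931-46743230 for Saa1 (minus strand), chr7:46751583-46751882 for Saa2 (plus strand), chr4:63362199-63362498 for Orm2 (plus strand) and chr2:32387690-32387989 for Lcn2 (minus strand).
Saa1: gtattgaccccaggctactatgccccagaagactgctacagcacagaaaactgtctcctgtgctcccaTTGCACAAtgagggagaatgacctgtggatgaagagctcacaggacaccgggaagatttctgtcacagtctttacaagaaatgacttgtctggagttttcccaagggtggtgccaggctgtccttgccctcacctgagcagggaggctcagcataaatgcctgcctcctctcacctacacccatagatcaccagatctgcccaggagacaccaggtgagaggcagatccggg
Saa2: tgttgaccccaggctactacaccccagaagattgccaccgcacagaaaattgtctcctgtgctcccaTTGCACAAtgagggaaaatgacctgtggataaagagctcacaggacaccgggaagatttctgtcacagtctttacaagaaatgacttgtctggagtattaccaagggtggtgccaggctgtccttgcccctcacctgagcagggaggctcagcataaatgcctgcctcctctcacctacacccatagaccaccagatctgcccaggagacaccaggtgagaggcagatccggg
Orm2: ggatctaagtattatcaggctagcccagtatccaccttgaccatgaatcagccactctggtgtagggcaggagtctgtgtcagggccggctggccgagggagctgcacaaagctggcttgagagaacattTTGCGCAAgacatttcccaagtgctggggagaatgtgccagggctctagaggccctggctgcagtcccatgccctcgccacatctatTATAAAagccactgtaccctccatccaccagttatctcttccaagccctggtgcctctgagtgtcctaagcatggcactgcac
Lcn2: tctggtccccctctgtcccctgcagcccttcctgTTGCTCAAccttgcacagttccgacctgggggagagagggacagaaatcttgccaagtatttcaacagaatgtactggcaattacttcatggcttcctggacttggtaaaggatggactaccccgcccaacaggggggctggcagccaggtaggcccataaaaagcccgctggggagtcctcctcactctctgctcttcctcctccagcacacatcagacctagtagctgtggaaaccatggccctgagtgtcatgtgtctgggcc
The promoters of Saa1 and Saa2 were identical at 95.4% of 301 aligned positions, and both held the site TTGCACAA, starting at -182 and -183 from the transcription start. Orm2 held TTGCGCAA at -120 and the core promoter motif at -33, and Lcn2 held TTGCTCAA at -216. Of the 8 genes with a promoter in the RefSeq table (Orm1 and Hp are not in it), 6 held the C/EBP motif, which 10.8% of 32851 promoters held. The STAT motif was found in 2 of the 8, Apcs and Itih4, against 8.3% of all promoters. The core promoter motif was found in Orm2 and, at -3 on the opposite strand, in Itih4, against 13.6%. A match describes letters in this window and not a bound site.

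Saa1, Saa2 and Saa4 encode serum amyloid A proteins, small apolipoproteins of high density lipoprotein. The genes lie within 26.3 kb of chromosome 7 (Saa4 at chr7:46727992-46732603, Saa1 at chr7:46740497-46743181 and Saa2 at chr7:46751833-46754313, GRCm38.p6). Saa1 and Saa2 are the inducible forms, and Saa4 is the constitutive form. Transcript ends of the paralogs were taken from the first protein-coding transcript listed for each gene in GENCODE M1, which need not hold the end that was read. The last 300 bases of the Saa1 and Saa2 transcripts were 91.2% identical, and RefSeq lists each symbol as a synonym of the other. Reads could thus have been split between them, and the names could be exchanged. Saa4 shared at most 51.3% of these bases with either, and 0 of the 50-base windows.

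Saa1 stood at 50.9, 35.5 and 81.3 CPM in the 3 wild type females and at 223, 75.5 and 58.6 CPM in the 3 Siah2 KO females. In males it stood at 83.0, 46.0 and 53.6 CPM in wild type and at 50.7, 28.1 and 52.6 CPM in Siah2 KO. A single KO female, mouse 1070, was 2.69 times higher than the next mouse, and the other 11 mice overlapped. Saa2 showed the same mouse on top, with 131, 53.2 and 30.5 CPM in KO females against 24.7, 19.4 and 36.5 CPM in wild type females. Saa2 in males was at 24.4, 11.5 and 19.4 CPM in wild type and at 14.3, 14.7 and 31.2 CPM in KO. Thus 2 of 3 KO females lay above every wild type female for Saa2, while the male groups overlapped. Saa4 behaved differently and was highest in KO males, with 1094, 749 and 825 CPM against 621, 714 and 637 CPM in wild type males. In females Saa4 was at 540, 688 and 721 CPM in wild type and at 660, 569 and 664 CPM in KO, and these groups overlapped.

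**Figure D1:**
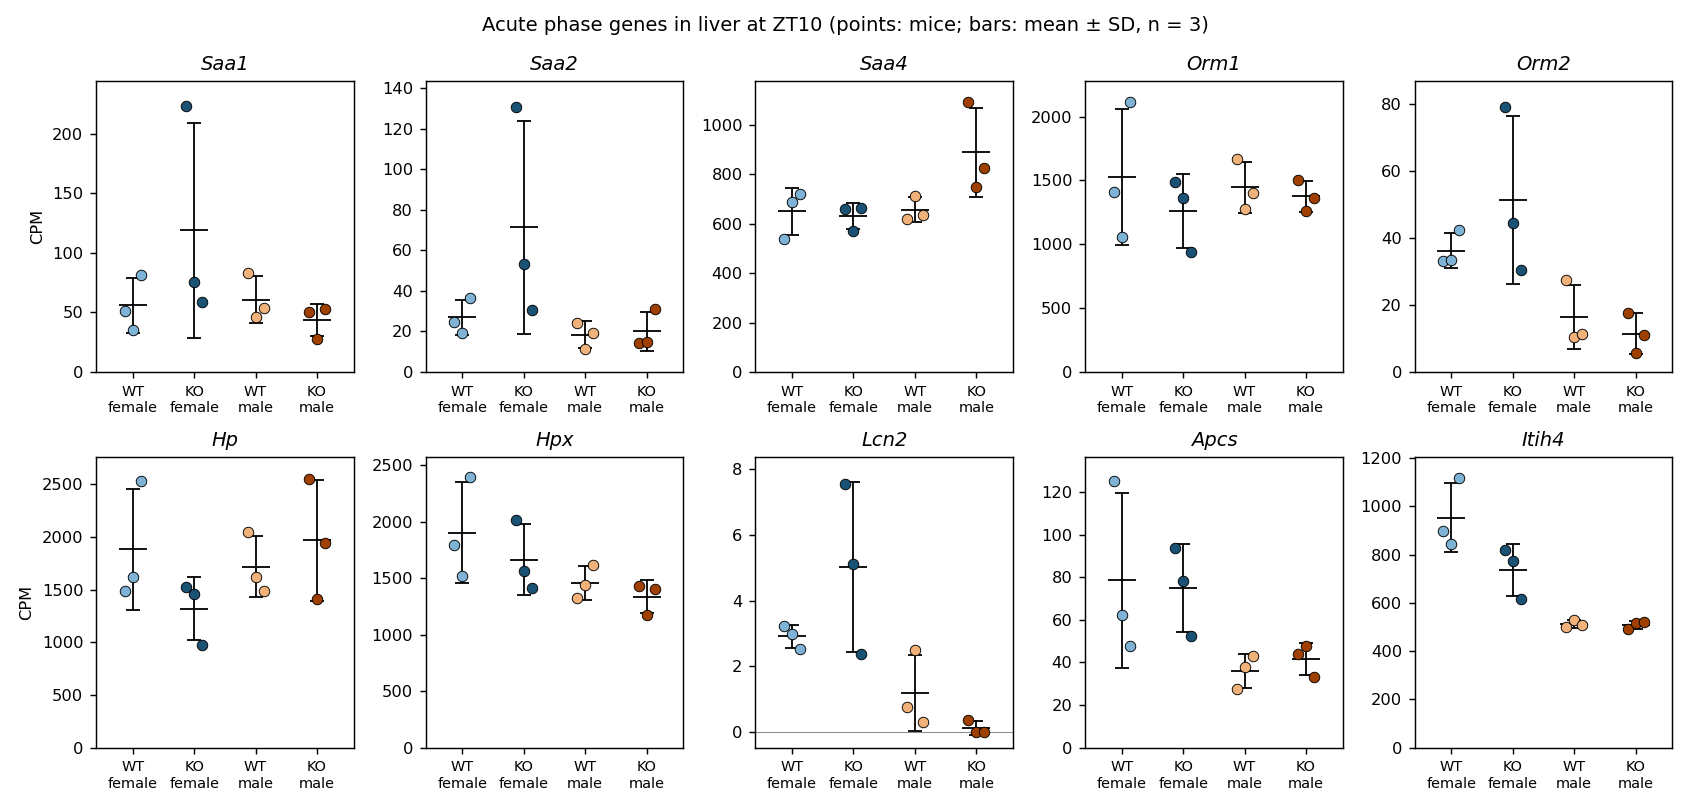
CPM (linear axes from 0) of each acute phase gene in each of the 12 mice, in wild type (WT) and Siah2 KO females and males; points are mice, horizontal bars the mean and whiskers the SD of 3 mice. KO female 1070 is the top point for Saa1 (223 CPM), Saa2 (131 CPM), Orm2 (78.9 CPM) and Lcn2 (7.54 CPM), and Itih4 lies between 491 and 530 CPM in all 6 males.

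Orm1 and Orm2 encode orosomucoid (alpha-1-acid glycoprotein), a carrier of basic drugs and a modulator of immune cells. With Orm3, a paralog outside the chosen set, they lie within 21.3 kb of chromosome 4 (Orm1 at chr4:63344556-63348163 and Orm2 at chr4:63362449-63365877). The last 300 bases of Orm1 and Orm2 were 97.7% identical, and 58.6% of the 50-base windows in the Orm1 end also occur in Orm2, so that the split of reads between these genes is uncertain. Orm1 reached 1413, 1060 and 2111 CPM in wild type females and 1488, 1366 and 937 CPM in KO females. In males it was at 1665, 1278 and 1398 CPM in wild type and at 1503, 1260 and 1362 CPM in KO. All 4 groups overlapped for Orm1, and its mean over 6 females (1396 ± 411 CPM, SD) was close to that over 6 males (1411 ± 153 CPM).

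Orm2 differed by sex. It was at 33.0, 33.4 and 42.2 CPM in wild type females and at 78.9, 44.4 and 30.5 CPM in KO females. The males had 27.4, 10.5 and 11.4 CPM in wild type and 17.7, 5.61 and 11.1 CPM in KO. The lowest of 6 females was thus above the highest of 6 males, wild type male 1055. Because a larger library or a scaling factor moves Orm1 and Orm2 together, the share of Orm2 in the counts of the pair was computed within each mouse. It was 2.28%, 3.06% and 1.96% in wild type females and 5.04%, 3.14% and 3.15% in KO females. In males it was 1.62%, 0.816% and 0.809% in wild type and 1.16%, 0.443% and 0.805% in KO. The 6 females averaged 3.11% ± 1.07 (SD) and the 6 males 0.942% ± 0.402, with no overlap (two-sided exact permutation test, p = 0.002165, the smallest that 6 against 6 allows). This test was chosen after the values were seen. The exact tests of the Saa2 share and of Lcn2 below were not planned either, and none of these p-values is adjusted. Within females the share averaged 3.78% in KO and 2.43% in wild type mice, with no overlap, and 3 against 3 mice cannot give an exact p below 0.10. The gap between the groups was within counting error. KO female 1104 had 3.14% (counting interval 2.64% to 3.74%) and wild type female 1090 had 3.06% (2.55% to 3.67%). The CPM of Orm2 itself overlapped between these groups, while for 23.4% of all genes CPM did not.

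The share of Saa2 in Saa1 plus Saa2 was 35.3% ± 3.61 in 6 females and 27.1% ± 7.10 in 6 males (exact permutation test, p = 0.0433). Here the sexes overlapped, since KO males 1076 and 1081 had 34.3% and 37.2% while the lowest female had 31.0%. By genotype the share averaged 37.5% in KO and 33.0% in wild type females (exact p = 0.20), and 31.2% and 23.1% in males (exact p = 0.30).

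**Figure D2:**
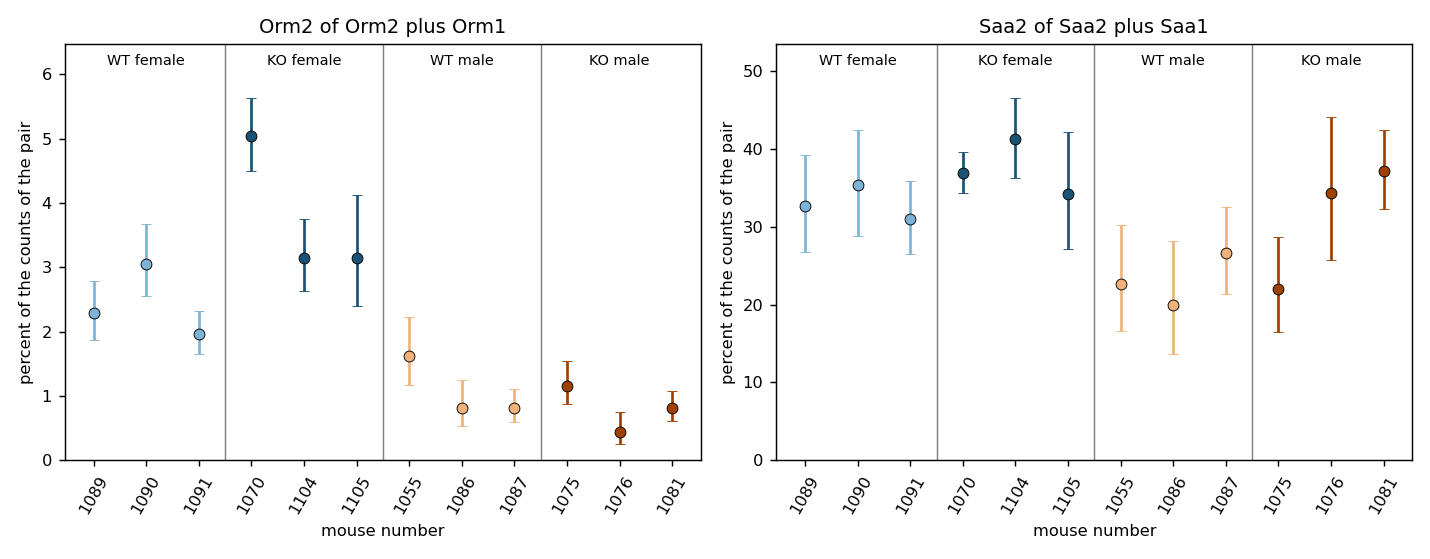
Percent of the counts of a pair of near-identical genes assigned to the second gene of the pair, in each mouse: Orm2 in Orm1 plus Orm2 (left) and Saa2 in Saa1 plus Saa2 (right); whiskers are 95% Wilson intervals, which cover counting error only. All 6 females (1.96% to 5.04%) lie above all 6 males (0.443% to 1.62%) for Orm2, while for Saa2 the sexes overlap.

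Hp and Hpx encode the scavengers of free haemoglobin (haptoglobin, chr8:109575128-109579172) and of free haem (hemopexin, chr7:105591611-105600116). Hp was at 1486, 1621 and 2534 CPM in wild type females and at 1525, 1456 and 977 CPM in KO females. In males it was at 2044, 1617 and 1491 CPM in wild type and at 2550, 1410 and 1939 CPM in KO. The highest and the lowest mouse differed by 2.61 times, and the groups overlapped within each sex. Hpx was at 1799, 1518 and 2393 CPM in wild type females and at 2017, 1568 and 1414 CPM in KO females. Male levels were 1322, 1440 and 1620 CPM in wild type and 1434, 1173 and 1406 CPM in KO, again with overlap.

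Lcn2, at chr2:32384637-32387739, encodes lipocalin 2, which binds bacterial siderophores and so withholds iron. It gave 9, 10 and 8 counts in wild type females and 28, 14 and 4 counts in KO females. In males it gave 1, 5 and 1 counts in wild type and 1, 0 and 0 counts in KO. A count of 0 allows up to 1.25 CPM in KO male 1076 and up to 0.740 CPM in KO male 1081, before TMM scaling. Summed over 3 mice, KO females had 46 counts and KO males 1, a ratio of 52.0 after division by the library totals, with a counting interval from 8.87 to 2096. For wild type mice the sums were 27 and 7 and the ratio 2.72 (1.16 to 7.40). These intervals leave out the spread between mice, and single mice gave 28 of the 46 counts and 5 of the 7. With mice as units, DESeq2 gave log2 fold changes of 1.33 ± 1.01 SE in wild type mice (unadjusted p = 0.185) and 5.39 ± 1.42 in KO mice (unadjusted p = 0.000151). It gave no adjusted p for either. On log2 CPM with a prior count of 3, the 6 females averaged 2.26 ± 0.51 (SD) and the 6 males 0.67 ± 0.64 (unplanned exact permutation test, p = 0.00433), and wild type male 1086 overlapped the females.

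Apcs encodes serum amyloid P, a pentraxin that binds debris and amyloid (chr1:172893961-172895054), and Itih4 encodes inter-alpha-trypsin inhibitor heavy chain 4, a plasma substrate of kallikrein (chr14:30886476-30901986). Apcs was at 125, 62.4 and 47.9 CPM in wild type females and at 93.7, 78.1 and 52.6 CPM in KO females. It was lower in males, at 27.4, 38.0 and 42.9 CPM in wild type and at 44.0, 47.9 and 33.4 CPM in KO. The lowest female and the highest male were equal to 3 digits. Itih4 was at 900, 844 and 1117 CPM in wild type females and at 818, 774 and 617 CPM in KO females. Males were nearly identical for Itih4, at 501, 530 and 508 CPM in wild type and at 491, 515 and 519 CPM in KO. The coefficient of variation of Itih4 over the 6 males was 2.70%, against 19.45% over the 6 females, and no female reached down to the male range.

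The first question was whether loss of SIAH2 altered these transcripts within each sex. In females edgeR called 0 of the 10 genes at an adjusted p under 0.05, and it called 0 of 9465 genes overall (0%). At an unadjusted p under 0.05 it found 1 of the 10, Saa2, against 15.6% of all genes, and DESeq2 called 0 of the 9 it gave an adjusted p, against 3.7% of all genes. Saa2 averaged 71.4 ± 52.5 CPM in KO and 26.9 ± 8.75 CPM in wild type females (log2 fold change 1.41 ± 0.48 SE, edgeR adjusted p = 0.199, DESeq2 adjusted p = 0.0781). Saa1 averaged 119 ± 90.4 and 55.9 ± 23.3 CPM (1.08 ± 0.49, edgeR adjusted p = 0.323). Without KO female 1070 these values became 0.64 for Saa2 (adjusted p = 0.575) and 0.26 for Saa1 (adjusted p = 0.862). Without wild type female 1091, a library after whose removal edgeR called 936 genes in females, Saa2 passed the test (1.73, adjusted p = 0.0478).

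Itih4 was the only one of the 10 whose female genotype groups did not overlap, at 736 ± 106 CPM in KO and 954 ± 144 CPM in wild type (log2 fold change -0.39 ± 0.24, edgeR adjusted p = 0.4835). Such separation was found for 23.4% of all genes in females. For the others in females the log2 fold changes were -0.05 for Saa4, -0.29 for Orm1, 0.50 for Orm2, -0.52 for Hp, -0.21 for Hpx, 0.84 for Lcn2 and -0.07 for Apcs, with edgeR adjusted p from 0.439 to 0.952. The median over the 10 genes was -0.06 on the log2 scale, beside -0.03 over all genes.

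In males edgeR called 0 of the 9 genes tested, and 0% of 8823 genes (Lcn2 had too few counts). At an unadjusted p under 0.05 it found 1 of the 9, Saa4, against 4.05% of all genes, and DESeq2 called 0 of 10, against 0.037%. Saa4 averaged 889 ± 182 CPM in KO and 657 ± 49.97 CPM in wild type males (log2 fold change 0.42 ± 0.16, edgeR adjusted p = 0.9999). The Saa4 groups did not overlap, which held for 8.87% of all genes in males. The sums of adipocyte and of bile duct markers did not overlap between these groups either. Bile duct markers summed to 27.6 to 36.1 CPM in KO males and 47.2 to 56.0 CPM in wild type males. The sum of the 5 adipocyte markers was 26.3, 3.45 and 6.39 CPM in KO males and 2.28, 1.001 and 2.47 CPM in wild type males. Its peak was in the mouse highest for Saa4, and Plin1 and Retn were at 0 in all mice. The part of these markers in the Saa4 values was not tested. Log2 fold changes of the other 8 lay between -0.45 (Saa1) and 0.18 (Hp). The male median over the 9 genes was -0.02 on the log2 scale, beside -0.01 over all genes.

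With both sexes combined, edgeR again called 0 of 9 genes (0.0111% of all genes), and DESeq2 called 0 of 10 (0.0056%). Only Saa2 had an unadjusted p under 0.05 (log2 fold change 0.9996 ± 0.46, edgeR adjusted p = 0.866), against 5.65% of all genes. Whether the genotype change differed between females and males was tested directly, and edgeR called 0 of 9 genes against 0.255% of all genes (DESeq2 0 of 9, 3.32%). Saa1 had the smallest p, with a difference (females minus males) of 1.56 ± 0.62 on the log2 scale (edgeR adjusted p = 0.256). An unadjusted p under 0.05 was found for that gene alone, against 14.1% of all genes. The differences for the remaining genes were 1.26 for Saa2, 0.96 for Orm2, -0.48 for Saa4 and -0.71 for Hp, with edgeR adjusted p from 0.416 to 0.516, and between -0.36 and -0.06 for Orm1, Hpx, Apcs and Itih4.

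**Figure D3:**
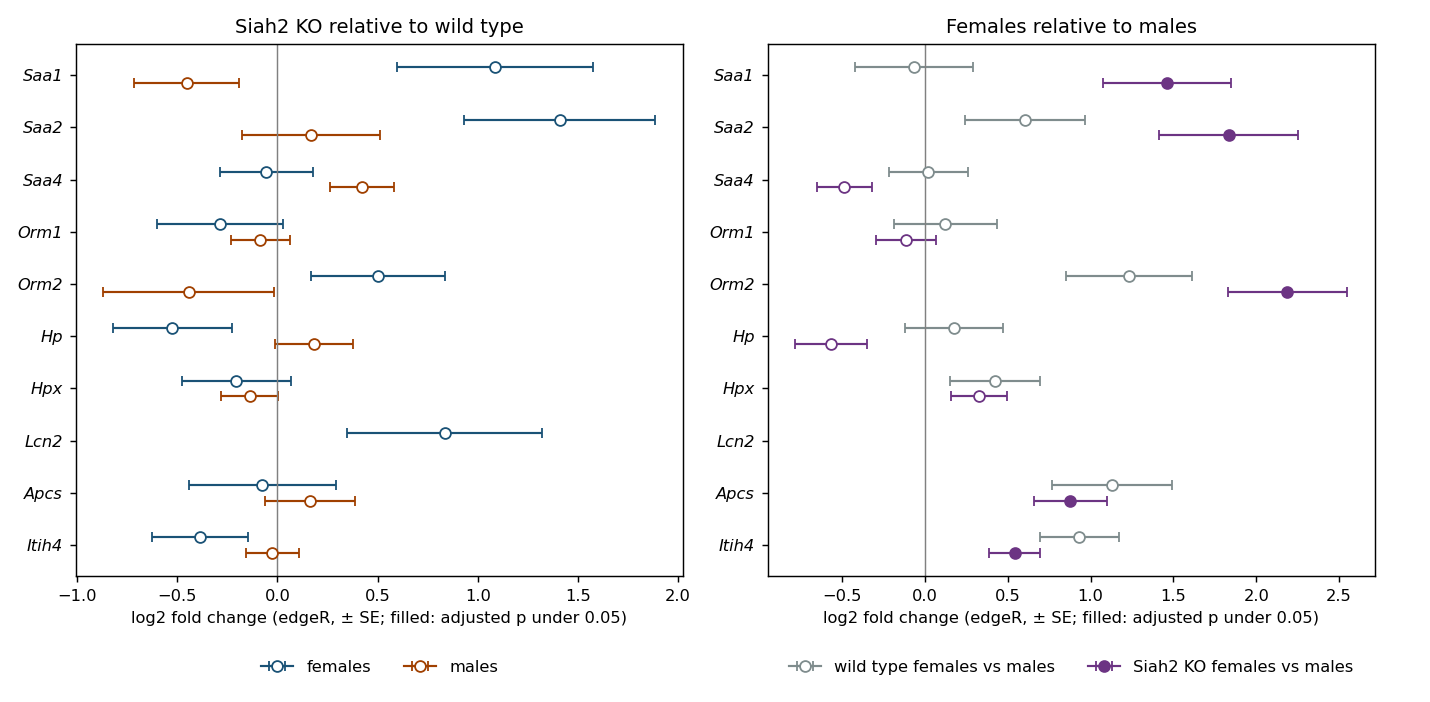
Log2 fold changes from edgeR with their SE for each acute phase gene, Siah2 KO relative to wild type in females and males (left) and females relative to males in wild type and Siah2 KO mice (right); filled points have an adjusted p under 0.05, and Lcn2 had too few counts for 3 of the 4 comparisons drawn. No point is filled on the left, and Saa1, Saa2, Orm2, Apcs and Itih4 are filled in Siah2 KO mice on the right.

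The sexes were then compared within each genotype. Counts of females and males were deposited separately, so that any difference in handling between these sets could not be told apart from sex. In Siah2 KO mice 5 of the 9 genes tested were higher in females and 0 lower by edgeR, where 11.5% of 9102 genes were called (5.69% higher). Orm2 had the highest fold change of the 5, at 11.4 ± 6.03 CPM in males and 51.3 ± 24.9 CPM in females (log2 fold change 2.19 ± 0.36, edgeR adjusted p = 0.00122), with 3 of 3 females above all males. Saa2 was higher by 1.83 ± 0.42 (adjusted p = 0.0117), Saa1 by 1.46 ± 0.39 (adjusted p = 0.0249), Apcs by 0.88 ± 0.22 (adjusted p = 0.0195) and Itih4 by 0.54 ± 0.15 (adjusted p = 0.0355) on the log2 scale. All of these except Saa2 were higher in 3 of 3 KO females than in every KO male, and Saa2 in 2 of 3. Including Saa4, which was lower in every KO female, 5 of 9 did not overlap, against 30.7% of all genes.

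Of these 5 genes, only Orm2 kept its call when each of the 6 KO mice was left out in turn (adjusted p from 0.000454 to 0.0153). Without KO female 1070 the log2 fold changes of Saa1, Saa2, Apcs and Itih4 were 0.62, 1.049, 0.68 and 0.46, with adjusted p of 0.181, 0.0907, 0.112 and 0.129. Leaving out another mouse ended calls while the fold changes stayed closer to those of all 6 mice. Without KO male 1075 Saa1, Saa2, Apcs and Itih4 were at 1.56, 1.63, 0.91 and 0.51 (adjusted p of 0.0601, 0.0581, 0.0504 and 0.109). Without KO male 1076 Saa1, Saa2 and Itih4 were at 1.24, 1.66 and 0.55 (0.0947, 0.0511 and 0.0758), and without KO male 1081 Saa1, Apcs and Itih4 at 1.61, 0.72 and 0.55 (0.0706, 0.110 and 0.112). Without KO female 1104 Apcs and Itih4 were at 0.85 and 0.51 (0.0660 and 0.128). A fit of all 4 groups with a shared spread also ended the calls of Saa1 (1.45, edgeR adjusted p = 0.08255), Apcs (0.86, 0.165) and Itih4 (0.54, 0.127) and kept those of Saa2 and Orm2. DESeq2 called Orm2, Apcs and Itih4 higher and Saa4 lower in KO females (4 of 9, against 9.91% of all genes), and gave 0.165 and 0.0795 for Saa1 and Saa2.

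In wild type mice edgeR called 0 of 9 genes between the sexes, where 1.39% of 9335 genes were called. Orm2 (1.23 ± 0.38 on the log2 scale, edgeR adjusted p = 0.166), Apcs (1.13 ± 0.36, adjusted p = 0.178) and Itih4 (0.93 ± 0.24, adjusted p = 0.102) had unadjusted p under 0.05, 3 of 9 against 15.2% of all genes. The same genes did not overlap between the sexes, 3 of 9 against 22.7%. DESeq2 called 1 of 9, Itih4 (0.89, adjusted p = 0.0135), against 3.74%. Without wild type female 1091 edgeR called Apcs (1.35, adjusted p = 0.0200) and Itih4 (0.77, adjusted p = 0.0149). Saa1 was at -0.07 ± 0.36 in wild type mice (adjusted p = 0.954), and Saa4, Orm1, Hp, Hpx and Saa2 lay between 0.02 and 0.60 (adjusted p from 0.47 to 0.982).

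A fit of all 6 females against all 6 males with a term for genotype, added after the data were seen, called 4 of 9 genes, all higher in females, against 6.12% of 9020 genes (3.08% higher). Higher in females were Orm2 (1.72 ± 0.32, edgeR adjusted p = 0.00275), Itih4 (0.73 ± 0.15, adjusted p = 0.00605), Apcs (0.99 ± 0.23, adjusted p = 0.0136) and Saa2 (1.26 ± 0.36, adjusted p = 0.0475). For Orm2 and Itih4 every female was above every male, which 2% of all genes showed in this direction. Apcs was counted with them, but its lowest female and highest male were tied at 47.9 CPM. Orm1 was the closest to equal between the sexes (0.00 ± 0.19, adjusted p = 0.998). The paralog Orm3, whose end was 91.4% identical to that of Orm2, was also higher in KO females than in KO males (1.80 ± 0.36, adjusted p = 0.00534). Whether the sex difference differed by genotype is the same contrast as the difference of the genotype changes given above, and edgeR called 0 of 9 genes in it.

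Kupffer cell markers moved with sex as well. Of the 10 markers, 9 were tested in KO mice, all 9 were higher in females, and edgeR called 6, against 11.5% of all genes. Their summed level was 377 to 860 CPM in KO females and 114 to 263 CPM in KO males. In wild type mice 9 of 10 were higher in females and 3 were called, against 1.39% of all genes, with sums of 508 to 685 CPM in females and 100 to 635 CPM in males, where mouse 1086 held the highest male value. Neutrophil markers, of which 0 were tested between the sexes, summed to 3.30 to 10.5 CPM in females and 0 to 3.45 CPM in males, with Elane at 0 in all mice. Of the red blood cell markers only Alas2 had a count, and it moved the other way. It was at 8.43 to 25.1 CPM in females and 83.6 to 153.7 CPM in males. It was called lower in females in both genotypes. The haemoglobin symbols Hba-a1, Hba-a2, Hbb-b1 and Hbb-b2 were at 0 in all mice. Hbb-bs and Hbb-bt were not among the gene symbols, so that 1 gene stands for this cell type here. In KO mice the sums of hepatocyte, endothelial, lymphocyte and adipocyte markers did not overlap between the sexes. Hepatocyte sums were 41310 to 47840 CPM in KO females and 32850 to 37940 CPM in KO males. Endothelial sums were 203 to 218 and 156 to 181 CPM. Lymphocyte sums were 4.03 to 5.39 and 0.246 to 2.63 CPM, and adipocyte sums 0 to 0.598 and 3.45 to 26.3 CPM. Bile duct, stellate cell and pancreatic sums overlapped. In bulk liver, fewer cells of a type and less RNA per cell cannot be told apart, and the part of any of these cells in the sex differences was not tested.

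**Figure D4:**
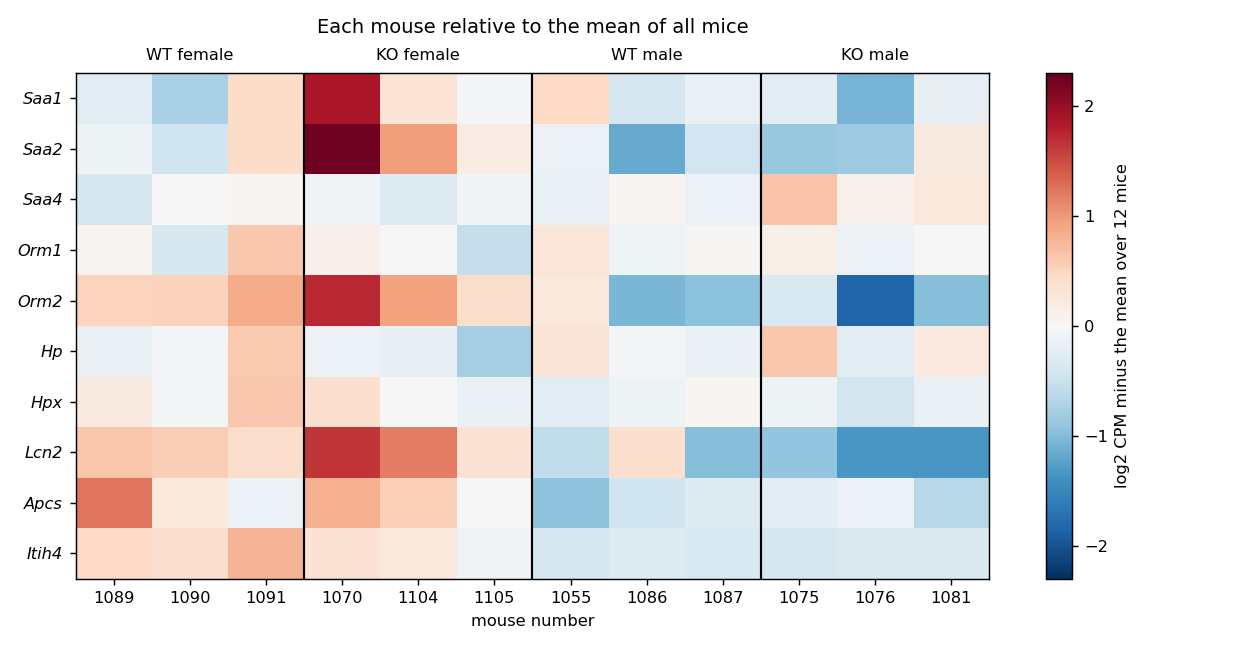
Log2 CPM (prior count 3) of each acute phase gene in each mouse, minus the mean of that gene over the 12 mice, with red above and blue below the mean; black lines separate the 4 groups. KO female 1070 is red for Saa1, Saa2, Orm2 and Lcn2 but near the mean for Saa4 and Hp, and wild type female 1091 is red for Orm1, Hp, Hpx and Itih4.

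The genes did not vary as 1 block across mice. Mouse 1070 was highest for 4 of the 10 genes (Saa1, Saa2, Orm2 and Lcn2) and wild type female 1091 for 3 (Orm1, Hpx and Itih4), while KO male 1075 was highest for Saa4 and Hp. These mice also had the lowest shares of counts from the ribosomal RNA gene Rn45s, at 6.44% in 1070, 5.69% in 1091 and 6.48% in 1075. The highest shares, 17.9% and 14.9%, were in KO male 1076, which was lowest for Saa1, Orm2 and Hpx, and in KO female 1105, which was lowest for Orm1 and Hp. Other extremes did not follow this order. KO male 1075 was also the lowest mouse for Itih4. Wild type female 1089, at 11.7%, was highest for Apcs and lowest for Saa4. The lowest Saa2 and Apcs levels were in wild type males 1086 (12.7%) and 1055 (9.51%). The mice other than 1070, 1091, 1075, 1076 and 1105 lay between 7.96% and 12.7%, and the part of this share in the levels was not tested. The 6 planned pairs were correlated on log2 CPM over 12 mice, with two-sided permutation tests and adjustment over the pairs. Saa1 and Saa2 had r = 0.87 (p = 0.00094, adjusted p = 0.00564) and rho = 0.78 (p = 0.00372, adjusted p = 0.0223). Without the 2 mice farthest from the median, 1070 and 1076, r was 0.63, and without mouse 1070 alone it was 0.67 (adjusted p = 0.0695). Within the 6 females r was 0.97 (exact permutation p = 0.00278, adjusted p = 0.0167), while rho was 0.94 (exact p = 0.0167, adjusted p = 0.10). Within the 6 males r was 0.52 (exact p = 0.301, adjusted p = 0.603). Of the 50-base windows in the Saa1 end, 9.56% also occur in Saa2, and the part of shared reads in this value was not tested.

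Saa2 and Orm2, which lie on different chromosomes, had r = 0.77 (p = 0.00222, adjusted p = 0.00666) and rho = 0.73 (p = 0.00948, adjusted p = 0.0284). Within females r was 0.95 (exact p = 0.0125, adjusted p = 0.0375), while rho was 0.77 (exact p = 0.103, adjusted p = 0.308). Within males r was 0.32 (exact p = 0.554, adjusted p = 0.831). Over both sexes r fell to 0.60 without mice 1070 and 1104, and to 0.67 without mouse 1070 alone (adjusted p = 0.0695). Saa2 and Lcn2 had r = 0.63 (p = 0.0217, adjusted p = 0.0434) and rho = 0.51 (p = 0.0927, adjusted p = 0.185). Without mice 1070 and 1104 r was 0.18, so that r over all mice depended on those 2. Within males r was -0.53 (exact p = 0.30, adjusted p = 0.603), where Lcn2 gave at most 5 counts in a mouse. Within females r was 0.87 (exact p = 0.0292, adjusted p = 0.0563), while rho was 0.54 (exact p = 0.297, adjusted p = 0.357).

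Orm1 and Orm2 had r = 0.20 over 12 mice (p = 0.539, adjusted p = 0.646; rho = 0.32, p = 0.306, adjusted p = 0.459), while within the 6 males r was 0.95 (exact p = 0.00139, adjusted p = 0.00833; rho = 1, exact p = 0.00278) and within the 6 females 0.45 (exact p = 0.351, adjusted p = 0.422). Of the 50-base windows in the Orm1 end, 58.6% also occur in Orm2, and the part of shared reads in the male value was not tested. Hp and Hpx had r = 0.27 (p = 0.398, adjusted p = 0.596; rho = 0.08, p = 0.817, adjusted p = 0.817). Within females Hp and Hpx reached 0.83 (exact p = 0.0375, adjusted p = 0.0563), but -0.25 without mice 1091 and 1105, and within males 0.12 (exact p = 0.84, adjusted p = 0.84). Saa2 and Hp had r = -0.13 (p = 0.677, adjusted p = 0.677; rho = -0.15, p = 0.653, adjusted p = 0.783).

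Among the 6698 genes that averaged 10 CPM or more, the profiles most like Saa2 over the 12 mice included those of Fuom (r = 0.91) and Prmt10 (0.86). For Orm2 they were Mrps17 (0.91), Sqrdl (0.90) and Aprt (0.89). Lcn2 was most like Hamp2 (0.94), Slc16a5 (0.93) and Ctss (0.92), and Hp most like Pfdn5 (0.95), Cib1 (0.93) and Tmem8 (0.92). These are descriptions over 12 mice that share sex and library as sources of variation.

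The other genes of the response gave the following counts. Of 20 further positive acute phase genes, 18 were tested in females, and edgeR called 0 between genotypes. DESeq2 called 4, against 3.7% of all genes, with Lbp (135 and 62.9 CPM in wild type and KO females, adjusted p = 0.0182), Crp (406 and 192 CPM, 0.0245) and Fga (1881 and 879 CPM, 0.00967) lower in KO and Steap4 (44.8 and 104 CPM, 0.0286) higher. Lbp encodes the lipopolysaccharide binding protein, Crp the C-reactive protein, Fga the fibrinogen alpha chain and Steap4 a metalloreductase. The median of the 18 was -0.32 on the log2 scale in females, beside -0.03 over all genes. At an unadjusted p under 0.05 edgeR found 1 of the 18 higher and 5 lower in KO females, where 15.6% of all genes passed in either direction. In males neither tool called any of the 18, and edgeR found 1 higher and 1 lower at an unadjusted p under 0.05. These were the metallothionein Mt1 (74.7 CPM in wild type and 185 CPM in KO males) and Steap4 (92.8 and 61.5 CPM). For the difference between the sexes in the change with genotype, edgeR called 0 of 18, and DESeq2 called Steap4 (1.82 on the log2 scale, DESeq2 adjusted p = 0.0197), Fga (-1.19, 0.0127) and Lbp (-1.26, 0.0336).

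Between the sexes, edgeR called 6 of 18 of these further genes higher in KO females and 0 lower, where 11.5% of all genes were called (5.69% higher). Among them were the hepatokine Fgl1 (2799 CPM in females and 887 CPM in males, log2 fold change 1.67 ± 0.19, edgeR adjusted p = 4.95e-05), the interleukin 1 receptor antagonist Il1rn (33.1 and 10.1 CPM, adjusted p = 0.000879) and the metallothioneins Mt2 (1539 and 298 CPM, adjusted p = 0.000515) and Mt1 (637 and 185 CPM, adjusted p = 0.00133). In wild type mice it called 3 of 18, against 1.39% of all genes, all higher in females. They were Fgl1 (3344 ± 918.4 and 762 ± 131.5 CPM, SD, adjusted p = 0.00773), Mt1 (977 ± 352.3 and 74.7 ± 69.25 CPM, adjusted p = 0.0151) and Mt2 (2435 ± 332 and 137 ± 154.3 CPM, adjusted p = 0.0196).

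Negative acute phase genes are those of plasma proteins that fall during the response. Of 11, 10 were tested, and edgeR called 0 between genotypes in either sex. DESeq2 called only Fetub (fetuin B), lower in KO females at 195 CPM against 368 CPM in wild type (adjusted p = 0.0105), where 3.7% of all genes were called. Between KO females and males, edgeR called Ahsg (fetuin A, 0.86 ± 0.21, adjusted p = 0.0162) and Alb (albumin, 0.60 ± 0.17, adjusted p = 0.0383) higher and Fetub lower (-0.66 ± 0.16, adjusted p = 0.0183) in females. Among all genes, edgeR called 11.5% there. It called 0 of 10 between wild type females and males (1.39% of all genes). In that comparison DESeq2 called Ahsg higher in females (1.31 on the log2 scale, adjusted p = 0.0482), against 3.74% of all genes. Ahsg averaged 15930 ± 9893 CPM (SD) in wild type females and 6684 ± 1252 CPM in wild type males, and edgeR gave an adjusted p of 0.1915.

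Of 29 genes of cytokine signaling to acute phase genes, 26 were tested in females and 27 in males, and edgeR called 0 between genotypes. DESeq2 called only Nfkb1, the p50 subunit of NF-κB, higher in KO females (17.8 CPM against 6.79 CPM, adjusted p = 0.0453), where 3.7% of all genes were called. In KO mice edgeR called 0 of 26 higher and 4 lower in females than in males, a share near the 11.5% called among all genes. These were Rela, the p65 subunit of NF-κB (56.9 and 99.2 CPM, edgeR adjusted p = 0.00636), the receptor Lifr (262 and 436 CPM, adjusted p = 0.00667), the transcription factor Hnf4a (202 and 313 CPM, adjusted p = 0.0276) and the NF-κB inhibitor Nfkbia (338 and 488 CPM, adjusted p = 0.0425). In wild type mice it called 0 of 27 in either direction. Of 10 receptor and clearance genes, edgeR called 0 between genotypes and 1 of 6 between KO females and males, against 11.5% of all genes. It was the biliverdin reductase Blvrb, which was lower in females (57.4 and 88.3 CPM, edgeR adjusted p = 0.025). DESeq2 called the haemoglobin scavenger receptor Cd163, itself a macrophage gene, higher in wild type females than males (26.6 and 8.03 CPM, adjusted p = 0.0246), where edgeR gave 0.0977. Among all genes, DESeq2 called 3.74% there.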

How the data were processed

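Liver RNA of 12 mice was counted by 3′ tag sequencing (Lexogen QuantSeq). The authors used BaseSpace (Illumina) to trim, map and count the reads, and the deposited tables, 1 per sex, hold raw counts per gene symbol. The submitters' processing notes name STAR, DESeq and mm10, without roles or versions, and the annotation used is not given in the sources read here. Columns were matched to samples by mouse number. Of the symbols, 27 had been turned into dates and were kept in the totals.

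Genes and lists were chosen with earlier results of these data known. Each comparison was fitted across all genes with edgeR 4.0.16 in R 4.3.3 (filterByExpr, TMM, quasi-likelihood F test, two-sided, Benjamini-Hochberg, threshold 0.05), within the groups compared, with the standard error taken as the fold change over the root of F. DESeq2 1.42.0, which the study used, and limma 3.58.1 were alternatives, beside RLE scaling, other filters, thinned libraries, a four-group fit, a term for sex and leaving out each mouse. CPM used factors from all 12 mice. Log2 CPM used a prior count of 3. Correlations over all mice used 100000 permutations, and tests within 1 sex or between groups of 6 or 3 enumerated all of them. Non-member genes were named by a rule: at most 4 per list with the smallest p among those called by either tool, or where none was called with the smallest unadjusted p under 0.05, and the 3 genes of at least 10 CPM with the highest r to Saa2, Orm2, Lcn2 and Hp. Of these, 1 is not reported here. No molecular identifiers are mentioned for these reads, and intervals and limits from 3 counts cover counting error only. The fits were tested on simulated data. Python 3.11.15, scipy 1.17.1 and matplotlib 3.10.9 were used for the remainder.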

Additional observations from a re-analysis of the deposited data

Results flagged for a closer look

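Of 40 groups of 6 mice (each gene in wild type mice, in Siah2 KO mice, in females and in males), 1 held a mouse apart from the others by Dixon's criterion. It was Orm1 in Siah2 KO mice, where KO female 1105 had the lowest level (937 CPM) and its gap to the next mouse was 0.627 of the whole range on log2 CPM, above the critical value for 6 samples. This library also had 14.9% of its counts from the ribosomal RNA gene Rn45s, the second highest share of the 12, and its part in the value was not tested. About 1 in 20 groups is flagged by chance, so that 1 of 40 is no more than chance would give.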

How the results depend on the processing

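Of 874 recomputed log2 fold changes of the 10 genes, 774 kept their direction and side of the threshold, 22 passed it only in the alternative, 21 no longer passed it and 57 had the other sign. Those with the other sign came from 20 of 55 results, none had an adjusted p under 0.05 (the smallest was 0.281), and the cause was not tested. Orm2 between KO females and males kept its call in every fit run.

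The number of the 10 genes called moved as follows. In females (0) it was 1 with weighted voom (Saa2), 2 with no filter (Saa1 and Saa2) and 0 to 1 without 1 mouse. For the difference between the sexes (0) it was 1 with no filter (Saa1). Between wild type females and males (0) it was 1 with DESeq2, 3 with weighted voom, 2 with no filter, 1 in the four-group fit, 4 with both genotypes and 0 to 2 without 1 mouse. Between KO females and males (5) it was 2 in the four-group fit (Saa2 and Orm2), 7 with no filter (adding Hp and Lcn2), 6 with weighted voom (adding Saa4), 4 with DESeq2 (Saa4 in place of Saa1 and Saa2) and 1 to 6 without 1 mouse.

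Counts over all genes moved too. In females (0) they were 303 with DESeq2, 1058 with weighted voom, 484 with no filter, 427 in the four-group fit and 0 to 936 without 1 mouse. In males (0) they were 6 with DESeq2, 29 with no filter and 0 to 3 without 1 mouse. With both sexes (1) they were 0 with voom, weighted or not, and 0 to 1 without 1 mouse. For the difference between the sexes (25) they were 260 with DESeq2, 558 with weighted voom, 325 with no filter, 5 in thinned libraries and 0 to 522 without 1 mouse. Between wild type females and males (130) they were 338 with DESeq2, 802 with weighted voom, 536 with no filter, 50 with at least 10 counts in every library, 505 in the four-group fit, 552 with both genotypes and 43 to 740 without 1 mouse. Between KO females and males (1044) they were 352 in the four-group fit and 486 to 1056 without 1 mouse.

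Log2 fold changes with the other sign were as follows. In females Saa4 was 0.0327 with weighted voom and Apcs 0.0231 with voom. In males Itih4 was 0.0044 with no filter. With both sexes Orm2 was -0.0709 with voom. Apcs with both sexes (-0.0002 as reported here) was 0.0248 with DESeq2, 0.0665 with voom, 0.15 with weighted voom, 0.0123 with RLE, 0.0153 with no filter, 0.0729 in thinned libraries and 0.0474 with a term for sex. For the difference between the sexes Orm1 was 0.0487 and Hpx 0.083 with weighted voom. Between wild type females and males Saa4 was -0.0172 with DESeq2, -0.10 with weighted voom, -0.0130 with RLE, -0.0148 in the four-group fit and -0.24 with both genotypes. There Orm1 was -0.14 and Hp -0.0752 with weighted voom, and with both genotypes Hp was -0.20 and Saa1 0.71.

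Leaving out 1 mouse in turn, the ranges that crossed 0 in females were -0.18 to 0.0388 for Saa4, -0.50 to 0.0319 for Orm1, -0.36 to 0.0066 for Hpx and -0.31 to 0.43 for Apcs. In males they were -0.32 to 0.38 for Saa2, -0.14 to 0.0368 for Orm1, -0.84 to 0.0621 for Orm2, -0.0301 to 0.38 for Hp and -0.0323 to 0.0229 for Itih4. With both sexes they were -0.13 to 0.65 for Saa1, -0.29 to 0.45 for Orm2 and -0.18 to 0.40 for Apcs. For the difference between the sexes they were -0.46 to 0.12 for Orm1, -0.25 to 0.14 for Hpx and -0.47 to 0.27 for Apcs. Between wild type females and males they were -0.47 to 0.20 for Saa1, -0.0916 to 0.10 for Saa4, -0.22 to 0.34 for Orm1 and -0.14 to 0.31 for Hp, and between KO females and males -0.25 to 0.0548 for Orm1.

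Of the correlations, Saa1 with Saa2 was 0.52 within males and 0.67 without KO female 1070. Saa2 with Orm2 was 0.32 within males and 0.67 without that mouse. Saa2 with Lcn2 was 0.53 with a prior count of 0.5, 0.87 within females, -0.53 within males and 0.43 without that mouse. Orm1 with Orm2 was 0.95 within males, and Saa2 with Hp was 0.0286 within females and 0.20 within males. No paired analysis was possible because each mouse has its own number and the groups share none. Library depth limits Lcn2 most, since 3 counts in the smallest library are 2.32 CPM.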
